A study of Mus musculus with 6 samples.

Results

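The genes studied were those of the small subunit of the mitochondrial ribosome in mouse embryos at the 2-cell stage. Members were taken by symbol: every row of the count table whose symbol is Mrps and a number, with or without a final a, b or c, together with Dap3 and Ptcd3, whose proteins carry other names but sit in the same subunit. The rule found 31 genes among 18649 named rows. Poly(A) RNA had been sequenced in 3 libraries from embryos in G1-PLUS medium holding 5 µM sodium arsenite, a trivalent arsenic salt, and in 3 control libraries labelled 0 µM. Strain, hours of exposure and embryos per library are not in the labels. The comparison asks what arsenite does to transcripts at the stage when RNA stored in the egg gives way to RNA of the embryo's own genome.

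Mitochondrial ribosomes stand apart from those of the cytosol: they translate the few proteins that mitochondrial DNA encodes, nearly all of them core subunits of the respiratory chain and ATP synthase. Every protein of the mitochondrial ribosome is nevertheless encoded in the nucleus, made in the cytosol and imported. The small subunit binds the mRNA and reads its codons, and it mixes descendants of bacterial ribosomal proteins with proteins that arose in mitochondria. An embryo at this stage carries the mitochondria of the egg.

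Libraries held 7758507 to 8519265 counts, so the floor of 3 counts lay at 0.335 to 0.438 CPM (counts scaled to the size of the library). CPM values, that floor included, carry TMM factors, which sets most genes to be equal on average, so all directions are relative to the other genes. Nothing in the labels ties a replicate to a culture or litter of its own, so the p-values speak of library-to-library spread, technical or not. Of 6 markers of the 2-cell stage 5 were in the table, summing to 817 to 1742 CPM with arsenite and 370.0 to 478 CPM in controls. All 6 oocyte markers were present, at 5561 to 8276 CPM with arsenite and 1148 to 2148 CPM in controls. Of 10 cumulus and granulosa cell markers 7 were present, at 11.6 to 16.1 CPM with arsenite, where Has2 was at 0, and at 2.77 to 6.83 CPM in controls, where Cyp11a1 was at 0. Sperm markers summed to 0.114 to 2.77 CPM with arsenite and 0 to 0.732 CPM in controls, and blastocyst markers to 9.41 to 61.8 CPM with arsenite and 3.01 to 11.3 CPM in controls. The part of these markers in the results below was not tested.

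Of the 31 genes, 5 fell with arsenite, 0 rose, 25 did not pass the test and 1, Mrps5, was too low to be tested. The 5 were Mrps24, Mrps10, Mrps12, Mrps22 and Mrps18c, and their mean levels were between 2.26-fold and 4.84-fold lower with arsenite than in controls. They made 16.7% of the 30 tested members, while 7.26% of all 12582 tested genes were lower and 9.43% were higher (adjusted p under 0.05 in the edgeR fit over all genes). At an unadjusted p under 0.05, 10 of the 30 tested members were lower and 2 higher. Of all 12582 tested genes, 1982 (15.8%) were lower and 2287 (18.2%) higher. The median log2 fold change was −0.52 over the tested members and 0.07 over all tested genes. It was below 0 for 22 members (73.3%) and above 0 for 8, while 47.8% of all tested genes were below 0. In bulk embryos, fewer cells that hold an RNA and less of that RNA per cell cannot be told apart.

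All 3 arsenite libraries lay below all 3 controls for 8 members (26.7%) and above them for 2 (6.67%), against 19.7% and 21.9% of all tested genes. With the replicate number as a block, 8 members fell and 1 rose, and calls over all genes also grew, to 12.6% lower and 13.4% higher. The 8 were the 5 above with Mrps18b, Mrps26 and Mrps28, and the 1 was Mrps25. The count depended on single libraries: without control replicate 3, 0 members passed, and without arsenite replicate 1 only Mrps10 and Mrps24 did. Without arsenite replicate 3 or control replicate 1, 3 members passed in each case. Falls over all genes dropped as well, from 914 to 188 without control replicate 3 and 180 without arsenite replicate 1. They numbered 642 without arsenite replicate 3 and 409 without control replicate 1. The members' median log2 fold change was −0.54 without control replicate 3, against −0.52 with all libraries. Fits with a library left out hold fewer samples, so a lost call need not mean a smaller change.

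**Figure D1:**
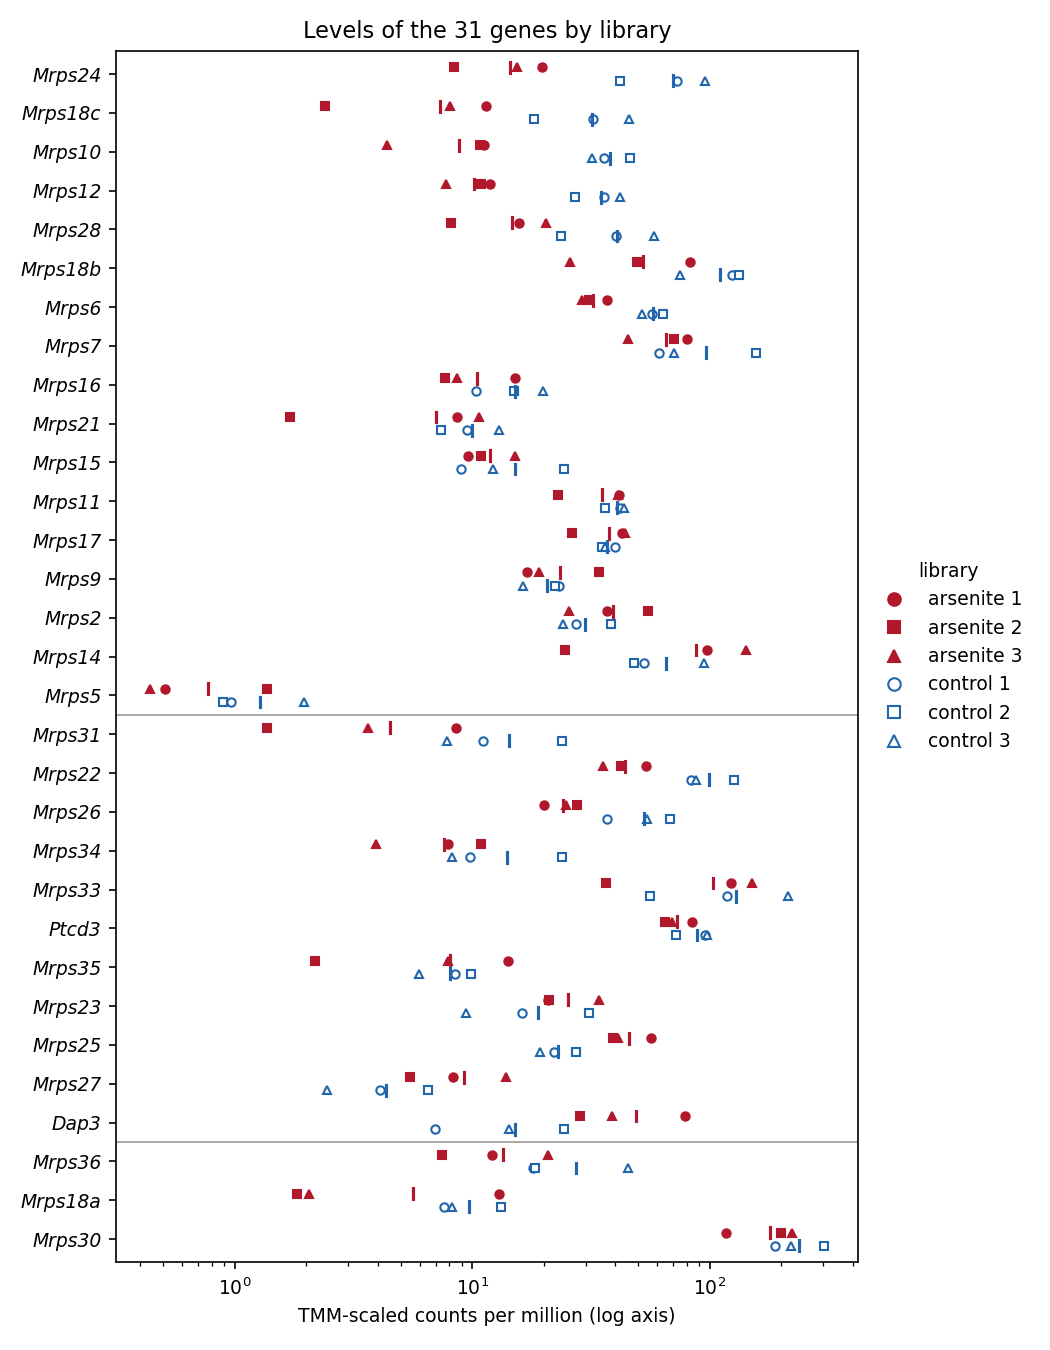
Level of each of the 31 genes in each library, as TMM-scaled CPM on a log axis. Filled red symbols are arsenite libraries, open blue symbols are controls, symbol shapes are replicate numbers and short vertical bars are group means. Horizontal lines part relatives of bacterial proteins (top), mitochondrion-specific proteins (middle) and genes placed elsewhere (bottom). For Mrps24, Mrps18c, Mrps10 and Mrps12 every arsenite symbol lies left of every control symbol, and for Dap3 and Mrps25 every arsenite symbol lies right.

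Mrps24 (chromosome 11, 5703982 to 5707701, GRCm38.p6) encodes the relative of bacterial ribosomal protein S3, which lines the mRNA entry channel. It had 19.6, 8.33 and 15.5 CPM in arsenite replicates 1, 2 and 3, against 72.6, 42.0 and 95.3 CPM in control replicates 1, 2 and 3. Replicate 2 was the lowest library of each group, and the highest arsenite library was still under the lowest control. The log2 fold change was −2.27 ± 0.44 (SE, edgeR adjusted p = 0.0101), the smallest p among the members. Leaving out control replicate 3 gave −2.06 and an adjusted p of 0.0503.

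Mrps10 (chromosome 17, 47368887 to 47381418), whose protein is related to bacterial S10 in the head of the subunit, fell to 11.2, 10.7 and 4.38 CPM in arsenite replicates 1, 2 and 3, against 35.9, 46.1 and 31.8 CPM in controls. Here replicate 2 was the highest control and the middle arsenite library, and the groups did not overlap. The log2 fold change was −2.11 ± 0.45 (SE, edgeR adjusted p = 0.0141). Without control replicate 3 it was −2.28 with an adjusted p of 0.0503, so the difference grew while the call was lost.

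Mrps12 (chromosome 7, 28739641 to 28741821) encodes the relative of bacterial S12, a protein of the decoding centre. Arsenite replicates 1, 2 and 3 had 11.8, 10.8 and 7.74 CPM, against 35.8, 27.1 and 41.7 CPM in controls. The groups were apart, with SDs of 2.13 CPM with arsenite and 7.33 CPM in controls (n = 3 each). The log2 fold change was −1.78 ± 0.39 (SE, edgeR adjusted p = 0.0158), and the call was lost without control replicate 3 or arsenite replicate 1 (highest adjusted p 0.0695).

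Mrps18c (chromosome 5, 100798759 to 100804467) is the member of a family of 3 paralogues that stands closest to bacterial S18, on the platform of the subunit. Its levels were 11.4, 2.40 and 8.03 CPM in arsenite replicates 1, 2 and 3, against 32.3, 18.2 and 45.5 CPM in controls. Replicate 2 was again the lowest of each group, and arsenite replicate 2 held 21 counts. Gm43511, on the same strand, shares 18.5% of the exon length of Mrps18c. The log2 fold change was −2.13 ± 0.59 (SE, edgeR adjusted p = 0.0339), and 4 of the 6 fits with a library left out lost the call.

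Mrps22 (chromosome 9, 98588730 to 98601679) encodes a mitochondrion-specific protein, and variants of its human counterpart cause a mitochondrial disease of heart and muscle. Per length it was the most abundant of the genes that fell. Arsenite replicates 1, 2 and 3 had 53.7, 42.2 and 35.5 CPM, against 83.3, 127 and 87.2 CPM in controls. The groups did not overlap, but the difference was the smallest of the 5 (log2 fold change −1.18 ± 0.32, SE, edgeR adjusted p = 0.0326). Each of the 6 fits that left out a library lost the call, at adjusted p-values of 0.0546 to 0.0917.

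**Figure D2:**
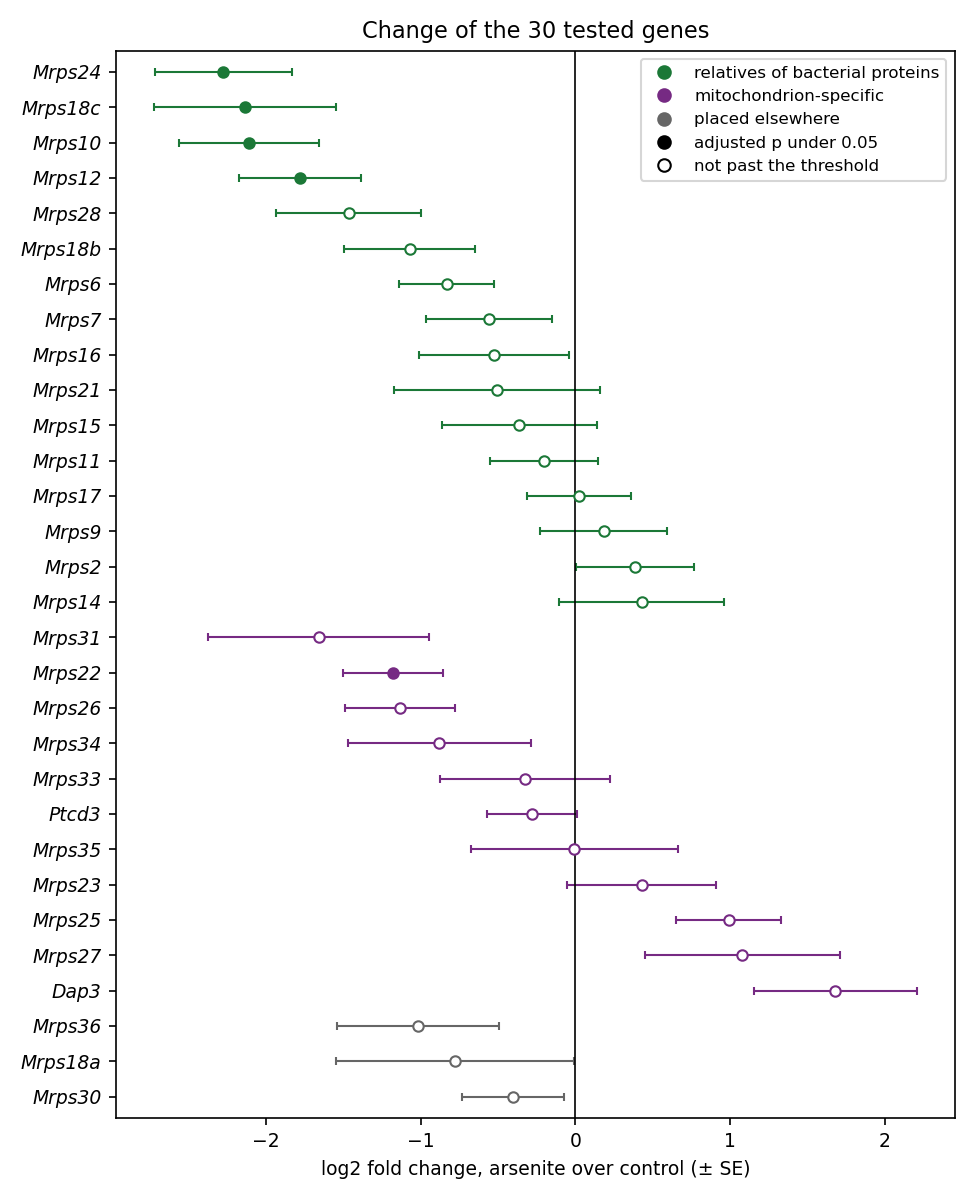
Log2 fold change of arsenite over control for the 30 tested genes, with bars of 1 SE from the edgeR fit. Filled points passed an adjusted p of 0.05 and open points did not, and colours give the class of the protein. The 5 filled points lie between −2.27 (Mrps24) and −1.18 (Mrps22), and the open points run up to 1.68 (Dap3).

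Promoters of the 3 members with the smallest p are shown because these carry the clearest differences. Each run gives 220 bases before to 30 after the start in the RefSeq promoter table, 5′ to 3′ on the strand of the gene (build GRCm38.p6). Capitals mark matches on either strand to an ETS motif (CCGGAAG), a YY1 motif (AAGATGGC) or an antioxidant response element (TGACNNNGC), which is bound by the stress regulator NRF2.
Mrps24, chr11:5707672-5707921, minus strand: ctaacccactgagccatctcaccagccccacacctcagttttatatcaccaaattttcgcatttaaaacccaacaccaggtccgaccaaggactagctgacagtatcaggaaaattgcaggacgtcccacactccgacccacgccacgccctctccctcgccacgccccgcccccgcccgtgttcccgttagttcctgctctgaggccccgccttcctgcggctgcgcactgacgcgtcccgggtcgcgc
Mrps10, chr17:47368977-47369226, plus strand: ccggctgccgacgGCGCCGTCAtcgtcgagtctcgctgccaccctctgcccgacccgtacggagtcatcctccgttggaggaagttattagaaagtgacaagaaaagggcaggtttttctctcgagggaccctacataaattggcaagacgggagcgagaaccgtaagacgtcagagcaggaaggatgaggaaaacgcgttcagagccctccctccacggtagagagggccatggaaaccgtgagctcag
Mrps12, chr7:28741792-28742041, minus strand: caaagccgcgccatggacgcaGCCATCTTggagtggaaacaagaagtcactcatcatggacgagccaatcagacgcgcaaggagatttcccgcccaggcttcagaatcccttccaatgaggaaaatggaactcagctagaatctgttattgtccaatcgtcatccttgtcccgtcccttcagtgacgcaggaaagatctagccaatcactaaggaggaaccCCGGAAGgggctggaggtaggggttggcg
The stretch of Mrps24 held none of these letters, although a YY1 match began 37 bases into the transcript. That of Mrps10 held 1 antioxidant element match on the minus strand of the gene. This run lies wholly inside the gene span given above, which begins at base 47368887, so its match is not upstream of that beginning. That of Mrps12 held a YY1 match at −199 and an ETS match starting at base 2.

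The RefSeq promoter table matched 27 of the 31 members, each with 250 bases before and 50 after the start. The start is the one that table uses, which can lie inside the gene span, as for Mrps10. An ETS match was in 11 of 27 (40.7%), against 9.93% of all 27025 genes in that table and 19.8% of those that were also tested here. YY1 matches were in 7 of 27 (25.9%), against 3.19% of all and 5.29% of tested genes. Together with the core of the NRF1 motif (GCATGCGC), named for a regulator of respiratory genes and found in 1 member (Mrps18b), at least 1 of the 3 kinds was in 15 of 27 members (55.6%) and 28.2% of tested genes. Among the 5 genes that fell, ETS letters were in Mrps12, Mrps22 (at −11) and Mrps18c (at −156), and YY1 letters in Mrps12 and Mrps24. The antioxidant element was in 6 of 27 (22.2%), against 14% of all and 16.6% of tested genes, and in Mrps10 and Mrps18c of those that fell. The full NRF1 motif and the ATF4 motif (TGATGCAA) were in 0 members. The Sp motif (GGGCGG) was in 66.7% of members and 65.6% of tested genes, and CCAAT in 44.4% and 44.2%. These are counts of letters, some of which overlap, and show no binding.

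Relatives of bacterial ribosomal proteins made up 17 of the members, of which 16 were tested. Of these 4 fell (25%, against 7.26% of all tested genes), with a median log2 fold change of −0.54. All arsenite libraries lay below all controls for 37.5% of the tested relatives and above them for 0, against 19.7% and 21.9% of all tested genes. Next in order of p was Mrps28, related in part to bacterial S1, with 15.6, 8.10 and 20.4 CPM in arsenite replicates 1, 2 and 3, against 40.2, 23.6 and 58.1 CPM in controls. Its groups did not overlap, yet it missed the threshold (log2 fold change −1.46 ± 0.47, SE, edgeR adjusted p = 0.0542) and passed with the block (adjusted p = 0.0112). Mrps6, a protein of the platform, had 36.8, 31.03 and 29.1 CPM with arsenite, against 57.2, 63.4 and 51.8 CPM in controls (log2 fold change −0.83 ± 0.31, SE, edgeR adjusted p = 0.0853), and the groups did not overlap. Its exons share bases with genes on the same strand, 36.1% of its length with Gm49711 and 18.8% with the transporter gene Slc5a3, and Slc5a3 had a log2 fold change of −0.27 ± 0.39 (SE).

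Mrps18b, the paralogue of Mrps18c that has moved away from the bacterial site, had 82.0, 49.4 and 25.8 CPM in arsenite replicates, against 124, 132 and 74.6 CPM in controls. The groups overlapped, with arsenite replicate 1 above control replicate 3. Its log2 fold change was −1.07 ± 0.42 (SE, edgeR adjusted p = 0.103), and −1.18 with an adjusted p of 0.018 in the fit with the block, where it passed. An antisense gene, Gm16279, which has no row of counts, covers 59.1% of its exon length. Without a stated strand setting, reads of the bases that the pair shares cannot be told apart.

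The other tested relatives of bacterial proteins had log2 fold changes between −0.56 (Mrps7) and 0.43 (Mrps14), all with overlapping groups. Mrps7, related to the S7 protein that helps start assembly of the head in bacteria, had 80.4, 70.5 and 45.0 CPM with arsenite, against 61.2, 157 and 70.6 CPM in controls, so that control replicate 2 alone stood high. Without that library its log2 fold change was −0.0077. Mrps14 had 97.0, 24.6 and 141 CPM with arsenite, against 52.7, 47.9 and 94.8 CPM in controls, and the fold change turned to −0.096 without arsenite replicate 3. Mrps17 was the most even, at 42.5, 26.4 and 44.1 CPM with arsenite, against 39.97, 34.95 and 35.98 CPM in controls (log2 fold change 0.03 ± 0.34, SE). Mrps16, Mrps21, Mrps15 and Mrps11 had log2 fold changes of −0.53, −0.51, −0.36 and −0.20, and Mrps9 and Mrps2 of 0.18 and 0.39. Mrps5, related to the S5 protein of the mRNA entry, averaged 0.772 ± 0.518 CPM with arsenite and 1.27 ± 0.592 CPM in controls (SD, n = 3 each), near the floor, and 3 to 16 counts a library.

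Mitochondrion-specific proteins accounted for 11 members, all of them tested. All arsenite libraries lay below all controls for 18.2% of them and above for 18.2%, near the 19.7% and 21.9% of all tested genes. Of the 11 members 1, Mrps22, fell (9.09%, near the 7.26% of all tested genes), and the median log2 fold change was −0.28. Dap3 (chromosome 3, 88920803 to 88951213), a GTP-binding protein of the subunit's head first described in human cells as a mediator of cell death, lay on the other side. It had 78.8, 28.4 and 38.5 CPM in arsenite replicates 1, 2 and 3, against 6.98, 24.2 and 14.3 CPM in controls. The groups did not overlap, though arsenite replicate 2 and control replicate 2 were close. Its log2 fold change of 1.68 ± 0.53 (SE) missed the threshold (edgeR adjusted p = 0.0511). The adjusted p was 0.0471 without arsenite replicate 2, 0.0476 without control replicate 2 and 0.26 without arsenite replicate 1, and 0.0542 with the block.

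Mrps25 also lay higher with arsenite in every library: 56.2, 39.0 and 41.0 CPM in arsenite replicates, against 22.0, 27.2 and 19.3 CPM in controls. Its log2 fold change was 0.99 ± 0.34 (SE, edgeR adjusted p = 0.0684), and it passed with the block (adjusted p = 0.048). Nr2c2, a nuclear receptor gene on the opposite strand, covers 58.2% of the exon length of Mrps25. It averaged 56.3 ± 16.3 CPM with arsenite and 105 ± 11.7 CPM in controls (SD, n = 3 each, edgeR adjusted p = 0.0754), so the pair had opposite signs. Without a stated strand setting, reads of the bases that the pair shares cannot be told apart. The same limit holds for Mrps27, of whose exon length 22.6% is shared with 6430562O15Rik on the opposite strand. Mrps27, whose protein belongs to the pentatricopeptide family of RNA binders, had 8.27, 5.48 and 13.9 CPM with arsenite, against 4.09, 6.48 and 2.44 CPM in controls, with overlap (log2 fold change 1.08 ± 0.63, SE, edgeR adjusted p = 0.248).

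Ptcd3 (chromosome 6, 71880638 to 71908773), another pentatricopeptide protein, which stands near the mRNA entry, did not pass the test. It had 83.7, 64.9 and 69.5 CPM in arsenite replicates 1, 2 and 3, against 95.6, 71.8 and 97.2 CPM in controls, with overlapping groups. The log2 fold change was −0.28 ± 0.29 (SE, edgeR adjusted p = 0.532). It kept its sign over all alternatives that were run, but was −0.66 with the trend on length and GC removed.

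Mrps26 missed the threshold by the least. It had 19.97, 27.6 and 24.8 CPM with arsenite, against 36.8, 67.7 and 54.3 CPM in controls, without overlap (log2 fold change −1.13 ± 0.35, SE, edgeR adjusted p = 0.0502), and passed with the block (adjusted p = 0.0247). Mrps31 had 8.52, 1.37 and 3.65 CPM with arsenite, against 11.1, 23.9 and 7.81 CPM in controls, a large but uncertain log2 fold change of −1.66 ± 0.71 (SE). Mrps33, among the most abundant members per length, spread within both groups: 122, 36.4 and 150.2 CPM with arsenite, against 118, 55.9 and 213 CPM in controls, with replicate 2 the lowest in each. Mrps34, Mrps35 and Mrps23 had log2 fold changes of −0.88, −0.0058 and 0.43, with overlapping groups. Single libraries moved these values: Mrps34 was −0.24 without control replicate 2, and Mrps23 was 0.012 without control replicate 3.

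The symbol rule also took 3 genes whose proteins are placed elsewhere: those of Mrps30 and Mrps18a sit in the large subunit, and that of Mrps36 belongs to the 2-oxoglutarate dehydrogenase complex. None of the 3 passed the test. Mrps30 had 116, 199 and 222 CPM with arsenite, against 187, 303 and 220.02 CPM in controls (log2 fold change −0.40 ± 0.33, SE, and −0.80 with the length and GC trend removed). B430218F22Rik, on the opposite strand, shares 18.1% of the exon length of Mrps30, so the strand limit given above holds here as well. Mrps18a had 13.0, 1.83 and 2.04 CPM with arsenite, against 7.59, 13.2 and 8.17 CPM in controls. Arsenite replicate 1 decided its mean, since the log2 fold change was −0.78 ± 0.77 (SE) with it and −2.36 without it. Mrps36 had 12.1, 7.42 and 20.9 CPM with arsenite, against 18.1, 18.4 and 45.0 CPM in controls (log2 fold change −1.01 ± 0.52, SE, edgeR adjusted p = 0.195), and 3 pseudogenes named after it could take some of its reads.

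Across the trio of Mrps18 paralogues, then, Mrps18c fell, while Mrps18b and Mrps18a had negative values that did not pass. Whether the paralogues differ in their response was not tested.

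Levels of different genes were set side by side only per length, as TPM (counts divided by exon length, then scaled to the same total in each library) over the exon union of GENCODE M21. In that scale the 31 genes summed to 1562, 1307 and 1217 TPM in arsenite replicates 1, 2 and 3, against 2177, 2542 and 2461 TPM in controls. Every arsenite library was below every control. By raw share of counts the difference was smaller, at 0.0997 ± 0.00937% with arsenite and 0.152 ± 0.0248% in controls (SD, n = 3 each), again without overlap. No p is given for these sums.

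The relatives of bacterial proteins held the larger part of the TPM difference, at 737 ± 143 TPM with arsenite and 1444 ± 57.2 TPM in controls (SD, n = 3 each). The mitochondrion-specific group summed to 442 ± 78.2 TPM with arsenite and 652 ± 74.3 TPM in controls (SD, n = 3 each). Mrps24 and Mrps18c changed place most among the genes that fell: Mrps24 ranked 15 of the 31 with arsenite and 5 in controls, and Mrps18c 23 with arsenite and 13 in controls. Per length, Mrps33 was highest with arsenite (149 ± 72.1 TPM) and Mrps18b in controls (256 ± 81.5 TPM), but the SDs of the leading members overlap, so their order is uncertain. Mrps5 was lowest in both groups.

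**Figure D3:**
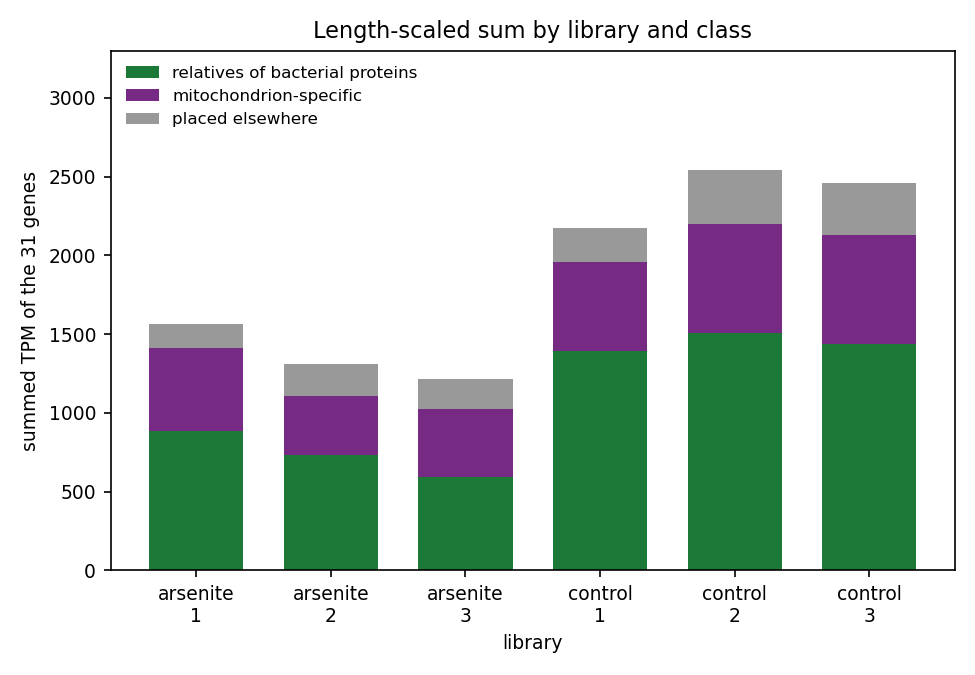
Summed TPM of the 31 genes in each library, stacked by class of protein, with the axis from 0. The 3 arsenite bars reach 1217 to 1562 TPM and the 3 control bars 2177 to 2542 TPM, and the green part, relatives of bacterial proteins, is the one that is shorter by most in the arsenite bars.

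Libraries with the same number resembled each other for some members. Replicate 2 was the lowest library in both groups for 9 of the 31 genes, among them Mrps33, Mrps24, Mrps18c, Mrps28 and Mrps14, and the highest in both for 3. For 13 members, however, replicate 2 deviated in opposite directions in the groups, and it was the lowest arsenite library for 17 members but the highest control for 17. It lay below the log2 mean of replicates 1 and 3 in both groups for 10 members and above it in both for 8. Among 11492 tested genes with counts in every library, replicate 2 was below in both for 3482 and above in both for 3512. For 4498 of those genes it deviated in opposite directions. The Pearson correlation of its deviations between the groups was 0.31 over the members and 0.24 over those genes. Whether the members differ from other genes in this was not tested. The 5 genes that fell had exon unions of 933 to 1197 bases (median 995), while the 25 tested members that did not pass ranged from 492 to 6073 (median 1538). GC content of the longest transcript was 44.5% to 56.5% in the first set and 38.6% to 59.9% in the second. After subtracting the trend that all genes showed with length and GC, the 5 had log2 fold changes of −1.97 (Mrps24), −2.25 (Mrps10), −1.41 (Mrps12), −1.25 (Mrps22) and −2.32 (Mrps18c). The part of length in the differences was not tested further.

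Of the 31 genes 11 start within 1000 bases of a protein-coding gene on the opposite strand, and 8 of these neighbours were tested. Mrps12 shares such a stretch with Sars2, the mitochondrial seryl-tRNA synthetase gene, whose start lies 172 bases away. Sars2 had 3.43, 2.74 and 1.90 CPM in arsenite replicates, against 7.22, 9.05 and 9.15 CPM in controls, so both genes were lower in every arsenite library, although Sars2 missed the threshold (log2 fold change −1.65 ± 0.60, SE, edgeR adjusted p = 0.0828). Mrps18c and the helicase gene Helq, 29 bases apart, had opposite signs, Helq averaging 114 ± 29.2 CPM with arsenite and 62.8 ± 23.4 CPM in controls (SD, n = 3 each, edgeR adjusted p = 0.109).

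Of the 8 tested neighbours 2 passed, each beside a member that did not, while 16.7% of all tested genes passed in either direction. Ptcd2, which encodes another mitochondrial pentatricopeptide protein and starts 81 bases from Mrps27, rose to 28.4, 24.0 and 11.0 CPM in arsenite replicates, against 4.58, 5.81 and 2.81 CPM in controls (log2 fold change 2.26 ± 0.54, SE, edgeR adjusted p = 0.0209). Polr1a, the largest subunit of RNA polymerase I, starts 303 bases from Ptcd3 and fell to 25.7 ± 3.65 CPM with arsenite, against 59.0 ± 9.87 CPM in controls (SD, n = 3 each, edgeR adjusted p = 0.0312).

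Other genes of mitochondrial translation were read from the same fit. The large subunit had 9 falls and 1 rise among 50 tested genes (18.0% and 2.00%), with a median log2 fold change of −0.93. Over all tested genes 7.26% fell and 9.43% rose. Mrpl20 averaged 40.9 ± 14.6 CPM with arsenite and 161 ± 16.8 CPM in controls, and Mrpl54 6.82 ± 1.71 CPM with arsenite and 35.4 ± 16.6 CPM in controls (SD, n = 3 each, edgeR adjusted p = 0.0069 and 0.0109). Non-overlap below the controls was seen for 28 of these 50 (56.0%) and for 8 of the 30 small-subunit genes (26.7%). It was seen for 19.7% of all tested genes, and the difference between the lists was not tested. With the block 17 of the large-subunit genes fell, while falls over all genes grew to 12.6%.

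Among 9 genes for assembly of the small subunit and modification of its RNA, 1 rose and 0 fell, with a median of 0.042. That rise made 11.1% of the list, near the 9.43% of all tested genes that rose, while 7.26% of all fell. The 1 was Nsun4, a methyltransferase of the small subunit's ribosomal RNA, with 291, 599 and 259 CPM in arsenite replicates 1, 2 and 3, against 129.5, 149.8 and 113.5 CPM in controls. All arsenite libraries were higher, arsenite replicate 2 by the most (log2 fold change 1.55 ± 0.36, SE, edgeR adjusted p = 0.0193). Ybey, an endonuclease-like maturation factor, was low, at 0.684 ± 0.511 CPM with arsenite and 4.23 ± 0.838 CPM in controls (SD, n = 3 each, edgeR adjusted p = 0.0764). Aurkaip1 and Chchd1, small-subunit proteins outside the symbol rule, had log2 fold changes of −0.13 ± 0.32 and −0.64 ± 0.83 (SE).

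Of 14 translation factors of mitochondria 0 fell and 0 rose by edgeR, while 7.26% and 9.43% of all tested genes did. At an unadjusted p under 0.05, 3 of the 14 were lower, while 15.8% of all tested genes were. By DESeq2 2 fell, among 1570 falls over all genes. The median of this list was −0.50. The smallest p-values in it belonged to Taco1, an activator of cytochrome oxidase translation, and Mtif2, an initiation factor (log2 fold changes −2.17 ± 0.78 and −1.10 ± 0.41, SE). In the cytosolic small subunit 7 of 31 genes fell (22.6%) and 0 rose, with a median of −1.11 and every member below 0. Over all tested genes 7.26% fell, 9.43% rose and 47.8% were below 0. Rps4x averaged 96.3 ± 8.20 CPM with arsenite and 304 ± 54.3 CPM in controls, and Rps3 145 ± 33.5 CPM with arsenite and 422 ± 50.5 CPM in controls (SD, n = 3 each, edgeR adjusted p = 0.00661 and 0.00961). With the block 23 of the 31 fell, while falls over all genes grew to 12.6%.

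**Figure D4:**
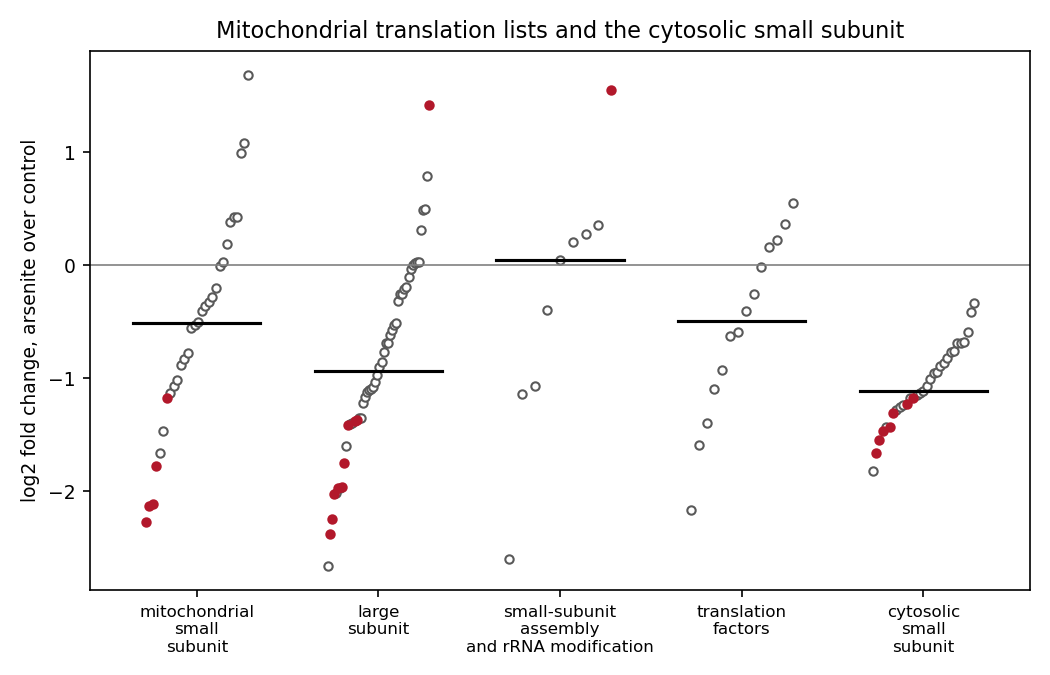
Log2 fold change of arsenite over control for each tested gene of the mitochondrial small subunit, the large subunit, assembly and RNA modification factors, translation factors and the cytosolic small subunit. Red points passed an adjusted p of 0.05, open points did not, and horizontal bars are list medians, from −1.11 (cytosolic small subunit) to 0.042 (assembly and modification). The mitochondrial small subunit runs from −2.27 to 1.68, and the cytosolic one stays below 0.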

How the data were processed

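The authors deposited raw integer counts by symbol for 6 libraries, grouped here by title. Named without roles in the submitters' processing notes are STAR, featureCounts 1.6.2, StringTie 2.1.4, DESeq2 1.30.1 and the build mm10. No source used here gives the annotation or strand setting. Per the labels' protocols cDNA was amplified by PCR, with no molecular identifiers mentioned, so counting floors cover counting error only. Mitochondrially encoded genes were not analysed here.

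Of 18660 rows, 11 whose symbol had become a date were left out. Arsenite was compared with control by the quasi-likelihood F-test of edgeR 4.0.16 (R 4.3.3) after TMM scaling and filterByExpr, with p-values adjusted by Benjamini-Hochberg over 12582 genes. DESeq2 1.42.0 and limma 3.58.1 (voom) were alternatives, and the script was tested on simulated data. Members and lists were chosen with earlier results of these data known. Values by library are given for members that passed, Dap3, Ptcd3, the Mrps18 paralogues, Mrps30, Mrps36, the 3 of highest CPM, the 3 largest positive changes and the 3 nearest misses, and for others (Mrps5, Mrps6, Mrps7, Mrps14, Mrps17, Mrps31 and neighbouring genes) chosen after their values were seen. Same-numbered libraries deviated from their group means together (correlations across genes 0.189, 0.221 and 0.178), which meets the criterion for pairing, although the labels do not say what the numbers share. The reported tests are nevertheless unpaired, and the fit with the replicate block is an alternative. TPM, positions and promoters came from GENCODE M21 and RefSeq (GRCm38.p6), the assembly behind mm10. Neighbour, overlap and library-number patterns were examined after the data were seen.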

Additional observations from a re-analysis of the deposited data

How the results depend on the processing

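The number of members that fell was 5, and the same 5 genes kept their calls under every other scaling, filter and test that was run, joined by 1 to 3 others. It was 8 with DESeq2 and 8 with the replicate block, and 0 to 4 of the 5 passed with a library left out (0 to 5 falls in all). Rises numbered 0, but 1 without a filter on low counts, 1 with limma voom, 1 with the block and 2 with DESeq2 (Dap3 and Mrps25), and 0 to 1 with a library left out. The members' median stayed negative throughout. The members' share without Mrps18a, Mrps30 and Mrps36 was 0.0808% with arsenite and 0.123% in controls.

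Over all genes 914 fell and 1187 rose, with 1570 falls by DESeq2 and 1586 falls and 1682 rises with the block, and with a library left out 180 to 1072 falls and 217 to 930 rises. Scaling by library size only moved the median of all genes from 0.07 to −0.05 (log2). In the large subunit DESeq2 called 19 falls and the block 17, and leaving out libraries gave 1 to 11 falls and 0 to 1 rises. In the assembly list DESeq2 called 1 fall, and leaving out libraries gave 0 to 1 rises. For translation factors DESeq2 and the block called 2 falls each, and leaving out libraries 0 to 1. For the cytosolic small subunit there were 12 falls without a filter, 17 with DESeq2, 12 with voom, 23 with the block and 2 to 24 with a library left out.

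Signs turned for some members that did not pass, with log2 fold changes from −0.36 (Mrps15) to 0.43 (Mrps14). Mrps17 (0.03) was −0.011 with RLE scaling and DESeq2, −0.11 with library size only, −0.020 with voom, −0.0077 with the block, −0.20 with the trend on length and GC removed and −0.11 to 0.14 with libraries left out. With that trend removed Mrps11 was 0.094 and Mrps9 −0.18. With libraries left out Mrps2 ran from −0.019 to 0.62, Mrps14 from −0.096 to 0.77, Mrps15 from −0.68 to 0.16, Mrps33 from −0.70 to 0.16, Mrps9 from −0.29 to 0.34 and Mrps35 from −0.75 to 0.37. The causes were not tested.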
